A study of Mus musculus with 14 samples.

Results

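The 10 genes described here encode transcription factors that start neuronal differentiation or set the kind of neuron a cell becomes. Neurog1, Neurog2, Neurod1 and Neurod4 are basic helix-loop-helix (bHLH) proteins. Barhl1, Otp, Prdm12, Isl1, Tlx3 and Pou4f1 are homeobox or zinc-finger factors of particular neurons. They were taken by gene symbol, and each of the 10 symbols matched 1 row among the 53465 genes of the count table. All libraries are polyA RNA-seq of wild-type C57BL/6 mouse embryos, with no transgene and no treatment. Skin of the back was collected at 4 ages (E9.5 and E10.5, then E12.5 and E14.5), and 2 sequencing projects each hold 1 library per age. The aorta-gonad-mesonephros region (AGM), a site of blood stem cell formation around the dorsal aorta, has labelled ages of E9.5 and E10.5 and E11.5. AGM has 2 libraries per age, 1 from each of 2 sequencing rounds, and its E9.5 tissue is labelled as the caudal part of the embryo together with PsP. Of these 14 libraries, no label says whether they came from separate embryos or pools, and every p-value therefore reflects the spread among libraries, which may be technical.

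Proneural bHLH factors commit a dividing progenitor to the neuronal lineage and switch on Notch ligands, which hold neighbouring cells back. NeuroD factors act after them, in cells that leave the cycle. Homeobox and related factors then fix the subtype. Levels of the 3 kinds of gene in a tissue thus tend to follow progenitors, newborn neurons and maturing neurons. Prdm12 is an exception, as it is also a factor of progenitors. Embryonic dorsal tissue lies over the spinal cord and the dorsal root ganglia, where these factors are best known.

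The sequences upstream of 4 members are shown, since their levels stood together or apart in these libraries. Neurog1 and Isl1 had opposite differences between AGM ages, Barhl1 had the largest ratio of the 10 between skin at E9.5 and E10.5, and Pou4f1 had an AGM profile opposite to that of Isl1. Each run holds the 250 bases before the first RefSeq gene start, 5′ to 3′ on the gene's own strand, from RefSeq on GRCm38.p6. Capitals mark matches to CANNTG, the E-box that bHLH proteins bind, or to TAATTA, a homeodomain core.
Neurog1, chr13:56252181-56252430, minus strand: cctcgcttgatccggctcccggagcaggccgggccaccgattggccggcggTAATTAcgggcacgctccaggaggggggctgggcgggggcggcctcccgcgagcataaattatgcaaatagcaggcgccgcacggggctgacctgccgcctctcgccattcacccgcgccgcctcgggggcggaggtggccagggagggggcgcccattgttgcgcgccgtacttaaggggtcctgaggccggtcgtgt
Isl1, chr13:116309689-116309938, minus strand: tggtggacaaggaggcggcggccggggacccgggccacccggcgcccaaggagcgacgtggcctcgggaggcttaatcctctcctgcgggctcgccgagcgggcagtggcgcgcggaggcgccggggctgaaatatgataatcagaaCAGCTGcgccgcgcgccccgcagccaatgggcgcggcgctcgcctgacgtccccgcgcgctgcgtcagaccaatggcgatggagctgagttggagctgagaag
Barhl1, chr2:28916669-28916918, minus strand: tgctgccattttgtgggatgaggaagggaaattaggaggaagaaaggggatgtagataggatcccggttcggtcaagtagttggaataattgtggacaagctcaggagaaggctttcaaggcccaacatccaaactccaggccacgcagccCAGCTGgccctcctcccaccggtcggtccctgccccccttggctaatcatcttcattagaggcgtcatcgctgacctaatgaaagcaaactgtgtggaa
Pou4f1, chr14:104468000-104468249, minus strand: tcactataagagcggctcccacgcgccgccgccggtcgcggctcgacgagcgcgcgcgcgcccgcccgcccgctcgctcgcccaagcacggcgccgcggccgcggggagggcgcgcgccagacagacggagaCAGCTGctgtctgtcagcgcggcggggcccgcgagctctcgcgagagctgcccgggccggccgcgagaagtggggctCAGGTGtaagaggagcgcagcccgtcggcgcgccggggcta
All 10 members matched the RefSeq table, 2 of them (Neurod4 and Barhl1) with 2 starts. CANNTG, which reads alike on both strands in its fixed letters, was found before the first start of 5 of 10 members (Neurod1, Barhl1, Otp, Isl1 and Pou4f1), against 66.2% of 32851 promoters of the same length. CAGATG, searched on both strands and contained in CANNTG, was found in 1 member (Otp) and in 14.4% of promoters. TAATTA was found in 1 member (Neurog1) and in 4.84% of promoters. These matches describe letters in a window and no binding was measured.

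Total counts were 19929352 to 24003912 in first-project skin, 6770338 to 15440012 in second-project skin and 21527400 to 29534551 in AGM. Levels are given as counts per 1000000 (CPM). The make-up of the libraries bears on every result. Second-project skin stood apart from the first: the sum of 5 erythroid markers was 0 CPM in 3 of its libraries and 0.148 CPM in that of E12.5, against 2180 to 4740 CPM in first-project skin. The AGM libraries went against their labelled ages in both rounds, by genes chosen after their values were seen. Lin28a, an RNA-binding protein of early embryos, was at 571 and 496 CPM in the libraries labelled E11.5 and at 22.99 and 40.8 CPM in those labelled E9.5, while in first-project skin it was at 366 CPM at E9.5 and 0.667 CPM at E12.5. Tbx6, a tailbud mesoderm gene, was at 21.8 and 10.54 CPM in AGM labelled E11.5 and at 1.12 and 0.904 CPM in AGM labelled E9.5. Nr5a1, a gene of the gonad and adrenal primordium, was at 17.0 and 13.4 CPM in AGM labelled E9.5 and at 0.0806 and 0 CPM in AGM labelled E11.5. AGM ages are therefore written as labelled, and no direction in time is read from them. The names of 3 AGM columns, those of the second round, show a number but no age, and giving them the ages of the same numbers in the first round is an assumption.

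In first-project skin, the 4 bHLH members were highest at E10.5 and nearly gone at E14.5. Neurog1 (chr13:56250478-56252163, minus strand, GRCm38), which commits progenitors of sensory and dorsal spinal neurons, was at 17.1, 46.7, 3.0 and 0.0895 CPM, from the youngest age to the oldest. Neurog2 (chr3:127633135-127635631, plus strand), its relative in spinal cord, cortex and ganglia, was at 41.9, 55.1, 2.08 and 0.313 CPM. Neurog2 was thus near its highest level already at E9.5, and both neurogenins had few reads at E14.5 (2 and 7 counts). Neurod1 (chr2:79452521-79456751, minus strand), which acts in newborn neurons and in endocrine cells, was at 9.13, 43.3, 10.6 and 0 CPM. Neurod4 (chr10:130268152-130280240, minus strand), also called Math3, was at 36.0, 79.1, 3.37 and 0.0448 CPM. Of the 4, Neurod1 kept the largest share of its E10.5 level at E12.5, 24.4%, against 3.78% for Neurog2, 4.27% for Neurod4 and 6.43% for Neurog1.

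The 6 subtype factors were also highest in skin at E10.5, but 5 of them stayed within 2-fold of that level at E12.5. Pou4f1 (chr14:104461676-104467999, minus strand), also called Brn3a, a factor of sensory neurons, was at 12.6, 70.0, 37.0 and 0.627 CPM at the 4 ages. Isl1 (chr13:116298281-116309689, minus strand), a LIM homeobox factor of motor, sensory and sympathetic neurons and of heart and hindlimb mesenchyme, was at 24.7, 60.7, 36.2 and 5.01 CPM. At E14.5 Isl1 still had 112 counts, where the other 9 members had 0 to 14. Prdm12 (chr2:31640037-31655795, plus strand), needed for pain-sensing neurons and also a factor of V1 progenitors of the spinal cord, was at 12.8, 26.9, 17.3 and 0 CPM. Tlx3 (chr11:33200752-33203589, minus strand), which selects the excitatory fate in dorsal horn and sensory neurons, was at 0.853, 14.6, 13.2 and 0.313 CPM. Otp (chr13:94875602-94885130, plus strand), a factor of hypothalamic and spinal neurons, was at 1.51, 17.0, 9.29 and 0 CPM. Barhl1 (chr2:28907679-28916668, minus strand), a factor of dorsal spinal interneurons that derive from Atoh1 progenitors, was at 0.251, 19.4, 1.29 and 0.0895 CPM. Barhl1 thus differed from the other 5, with 6.67% of its E10.5 level at E12.5 against 52.9% to 90.1%.

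**Figure D1:**
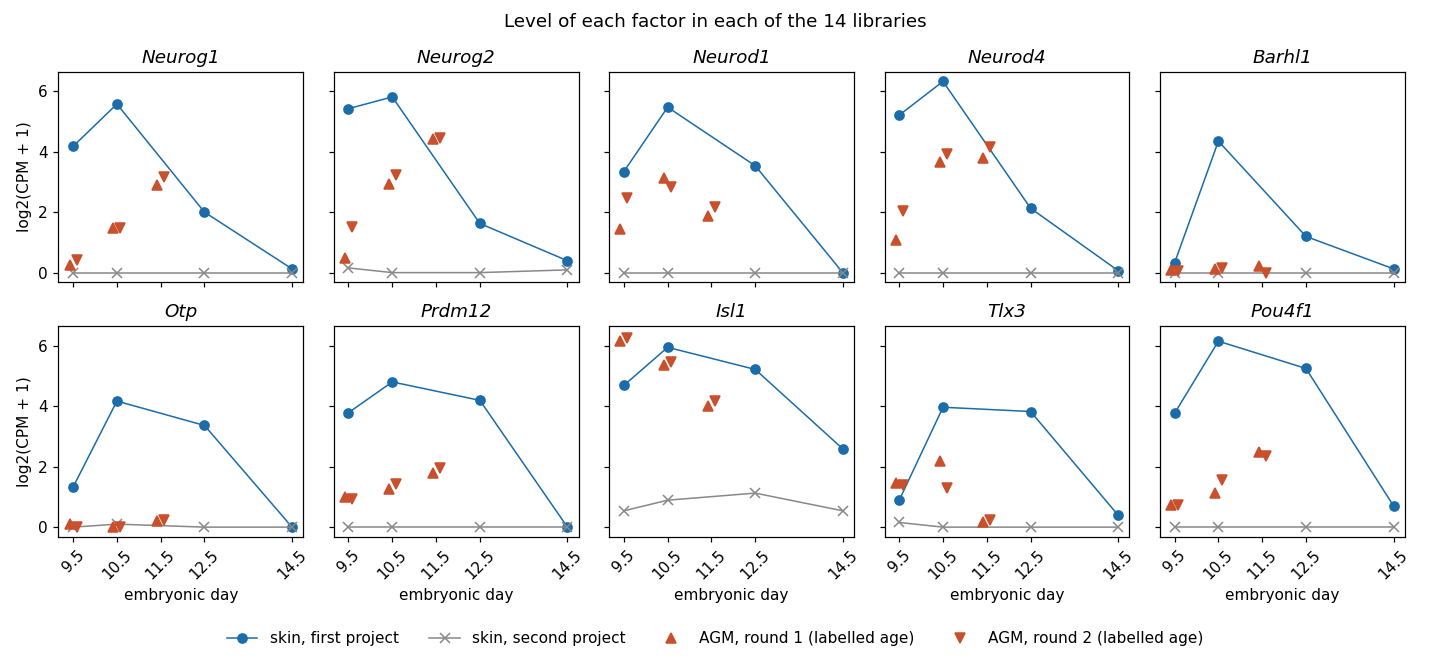
Level of each of the 10 factors, as log2(CPM + 1), against embryonic day in every library: first-project skin (joined circles), second-project skin (joined crosses) and AGM at its labelled age (triangles, 1 per round). All 10 peak at E10.5 in first-project skin, second-project skin stays near 0, and Isl1 is highest in AGM labelled E9.5.

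Each skin step compares 1 library with 1 library, so these differences are a description with no replicate check, and a gene was counted as past the threshold at a 4-fold difference with 1 CPM or more in the higher library. Intervals are exact 95% conditional binomial intervals and cover counting error only. From E9.5 to E10.5, 5 of 10 members were past 4-fold higher, against a background of 2.65% of 14752 genes, and 0 were past 4-fold lower (1.38%). Barhl1 was 77.2-fold higher (32.8 to 239, from 5 to 440 counts), Tlx3 was 17.1-fold higher (10.54 to 29.8) and Otp 11.3-fold (7.78 to 17.0). Pou4f1 was 5.56-fold higher (4.86 to 6.37) and Neurod1 4.74-fold (4.05 to 5.59). The other 5 were 1.32-fold (Neurog2) to 2.74-fold (Neurog1) higher. The 3 largest ratios were those of subtype factors, and Neurog2 had the smallest. In bulk tissue, fewer cells of a type and less RNA per cell cannot be told apart.

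From E10.5 to E12.5, 5 of 10 members were past 4-fold lower, against 2.36% of 15183 genes, and 0 were past 4-fold higher (8.62%). Neurog2 was 26.5-fold lower (19.9 to 35.8), Neurod4 23.4-fold (18.7 to 29.6), Neurog1 15.6-fold (12.2 to 20.0) and Barhl1 14.998-fold (10.4 to 22.3). Neurod1 was 4.09-fold lower, with an interval of 3.56 to 4.72 that includes the threshold. Tlx3 was 1.11-fold lower with an interval of 0.949 to 1.299, a difference not detectable at this depth. From E12.5 to E14.5, all 10 members were past 4-fold lower, against 5.46% of 15556 genes lower and 6.10% higher. Neurod1, Otp and Prdm12 had 0 counts at E14.5, and against a floor of 3 counts they were at least 78.8-fold, 69.2-fold and 129-fold lower. Isl1 was 7.21-fold lower (5.92 to 8.86) and Neurog2 6.65-fold (2.999 to 17.4), the smallest differences among the members with counts at E14.5. The intervals of Neurog2 and of Barhl1 (14.4-fold, 3.67 to 124) include the 4-fold threshold.

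**Figure D2:**
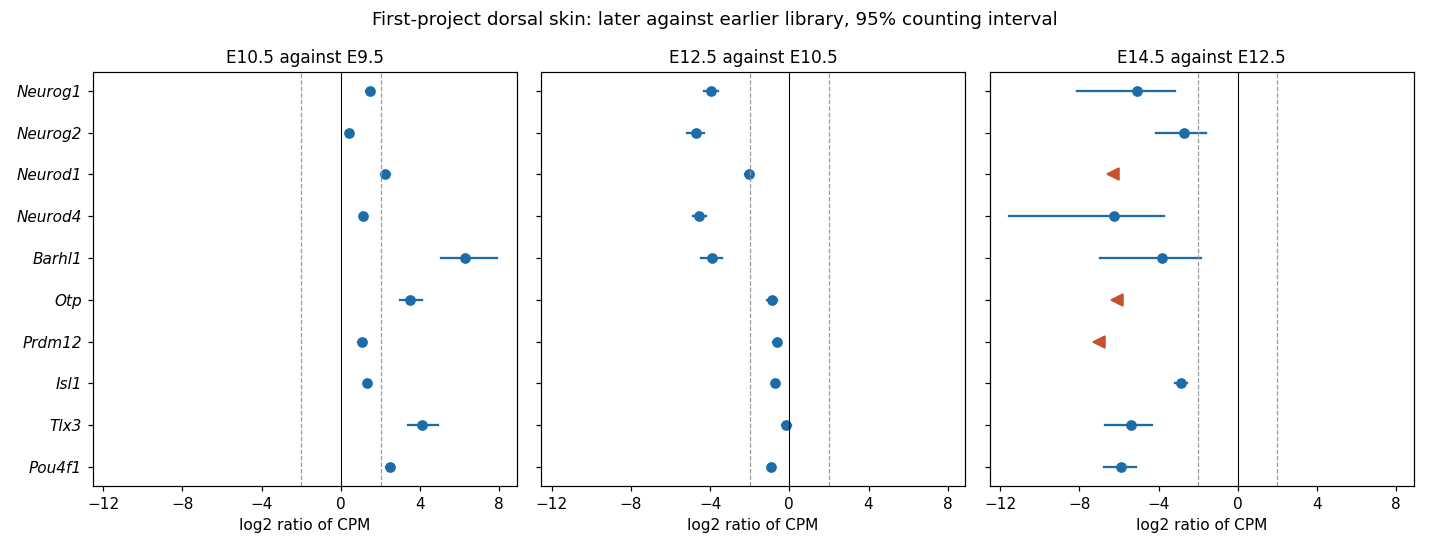
log2 ratio of CPM for each factor between successive ages of first-project skin (points, 1 library per age), with exact 95% counting intervals (bars) and dashed lines at a 4-fold difference. Left-pointing triangles are limits for 3 factors with 0 counts at E14.5; at E12.5 the 4 bHLH factors and Barhl1 lie to the left of the other 5.

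Other genes of the same pathway were counted by lists. Of 20 proneural and Notch pathway genes with enough reads, 5 were past 4-fold higher and 0 lower from E9.5 to E10.5, including Atoh1, the bHLH factor of dorsal progenitors (0.652 to 17.8 CPM), and Nhlh2, a bHLH gene of newborn neurons (log2 ratio 3.09). From E10.5 to E12.5, 8 of 22 were lower and 2 higher. Atoh1 had 0 counts at E12.5, and Neurod6 went from 0.0440 to 10.2 CPM. Of 16 neural progenitor genes, 1 was past 4-fold higher and 0 lower at the first step (Gsx1, log2 ratio 5.89). At the second step 13 of 16 were lower, including Olig3 (log2 ratio -6.61) and Sox3 (-5.70), which mark dividing cells of the neural tube. Pan-neuronal genes differed: 14 of 18 were higher at the first step, including the microtubule protein Dcx (log2 ratio 3.55), then 0 of 18 were lower at the second, and 15 of 18 were lower at the third. Summed over the lists, E12.5 kept 59.3% of the pan-neuronal level of E10.5 and 10.2% of the progenitor level. Of 14 sensory neuron genes, 5 were higher and 0 lower at the second step, including Avil, a protein of sensory axons (log2 ratio 2.90), and 9 were lower and 0 higher at the third. Of 8 motor neuron genes, 3 were higher and 0 lower at the first step and 5 were lower and 0 higher at the second (median log2 ratio -3.39), including Lhx3, a LIM homeobox factor of motor neurons (-5.40). Of 21 spinal interneuron genes, 9 were higher and 1 lower at the first step and 4 were higher and 4 lower at the second (median -0.59). Of posterior, limb and heart mesenchyme genes, other sites of Isl1, 6 of 8 were lower and 0 higher at the first step. At the second, 6 of 9 were higher and 0 lower, including Tbx5 (0.0440 to 179 CPM) and Hand2 (0.484 to 75.5 CPM). At the third, 4 of 9 were lower and 1 higher. Their part in the members' levels was not tested. Drgx, the other gene of the sensory neuron list, had no row. The median log2 ratio of all genes was 0.01, 0.04 and -0.12 at the 3 steps, and the medians of the proneural, progenitor, pan-neuronal and sensory lists were 1.29, 0.37, 2.78 and 1.59 at the first.

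Markers of skin were highest at E14.5, where the members were lowest. The sum of 8 surface ectoderm and keratinocyte genes was 152, 45.7, 250 and 3689 CPM at the 4 ages, and Krt5, the keratin of basal epidermis, was at 3.36, 3.52, 93.7 and 1722 CPM. Sox1, a neural tube progenitor gene, was at 91.8, 81.9, 3.0 and 0.0448 CPM, and Pax6, another, at 118, 111, 3.29 and 0.0448 CPM. All 16 progenitor genes had counts at E9.5, E10.5 and E12.5, and 3 of 16 were at 0 at E14.5. The part of neural tube RNA in the levels of the 10 members was not tested.

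In second-project skin the members were almost absent at every age. Their summed level was 0.680, 0.926, 1.18 and 0.518 CPM from the youngest age to the oldest, against 157, 433, 133 and 6.49 CPM in the first project. In counts, 6, 13, 8 and 8 reads were found where the first project's shares would give 1383, 6077, 902 and 100. Isl1 held 4, 12, 8 and 7 of those reads. Neurog2 had 1 count at E9.5 and 1 at E14.5, Tlx3 1 at E9.5 and Otp 1 at E10.5, and the other 6 members had 0 counts at all 4 ages. A count of 0 allows up to 0.194 to 0.443 CPM in these libraries. The differences between ages seen in the first project could not be measured in the second, and the projects were kept apart. Pan-neuronal genes had sums of 231 to 322 CPM in second-project skin, and dermal mesenchyme genes 8022 to 11057.8 CPM. The pan-neuronal genes were uneven there. Tubb3 was at 35.3 to 82.7 CPM and Gap43 at 52.0 to 67.8 CPM, but Dcx was at 0.142 to 0.340 CPM and Elavl3 at 0 to 0.443 CPM.

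In AGM, Neurog1, Neurog2 and Neurod4 were higher in the libraries labelled E11.5 than in those labelled E9.5. Neurog1 was at 0.203 and 0.329 CPM at labelled E9.5 (rounds 1 and 2), 1.79 and 1.78 at E10.5 and 6.45 and 7.85 at E11.5. Neurog2 was at 0.406 and 1.85, then 6.69 and 8.44, then 20.2 and 20.8 CPM. The groups of both genes did not overlap. Neurod4 was at 1.12 and 3.12, then 11.7 and 14.2, then 12.9 and 17.0 CPM, with E10.5 and E11.5 overlapping. Neurod1 was at 1.73 and 4.56, then 7.67 and 6.08, then 2.66 and 3.48 CPM, highest in both libraries labelled E10.5. The log2 change of E11.5 against E9.5, by edgeR's quasi-likelihood test over 17613 genes, was 4.89 ± 0.30 (SE, n = 2 per age) for Neurog1 (adjusted p = 2.13e-05), 4.38 ± 0.45 for Neurog2 (0.000199), and 2.98 ± 0.38 for Neurod4 (0.000539). The last 2 values depended on which E9.5 library was used: Neurog2 was at 3.61 without the first-round library and 5.78 without the second-round one, and Neurod4 at 2.39 and 3.87, with the calls kept. Neurod1 did not pass (0.12 ± 0.41, adjusted p = 0.830), and its rounds had opposite signs.

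Among the subtype factors, Isl1 and Tlx3 ran the other way from Prdm12 and Pou4f1. Isl1 was at 69.8 and 76.1 CPM in AGM labelled E9.5, 40.5 and 43.4 at E10.5 and 15.1 and 17.0 at E11.5, with no overlap. Tlx3 was at 1.76 and 1.64, then 3.51 and 1.43, then 0.121 and 0.186 CPM, so that E9.5 and E10.5 overlapped and E11.5 was lower than both. Prdm12 was at 0.982 and 0.904, then 1.39 and 1.67, then 2.5 and 2.88 CPM. Pou4f1 was at 0.677 and 0.657, then 1.18 and 1.94, then 4.55 and 4.13 CPM. The log2 change of E11.5 against E9.5 was -2.04 ± 0.11 for Isl1 (edgeR, adjusted p = 1.42e-05), -3.31 ± 0.62 for Tlx3 (0.00333), 1.65 ± 0.26 for Prdm12 (0.00150) and 2.84 ± 0.30 for Pou4f1 (0.000233). Barhl1 had 0 to 4 counts and Otp 0 to 4 counts in every AGM library, too few to test.

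**Figure D3:**
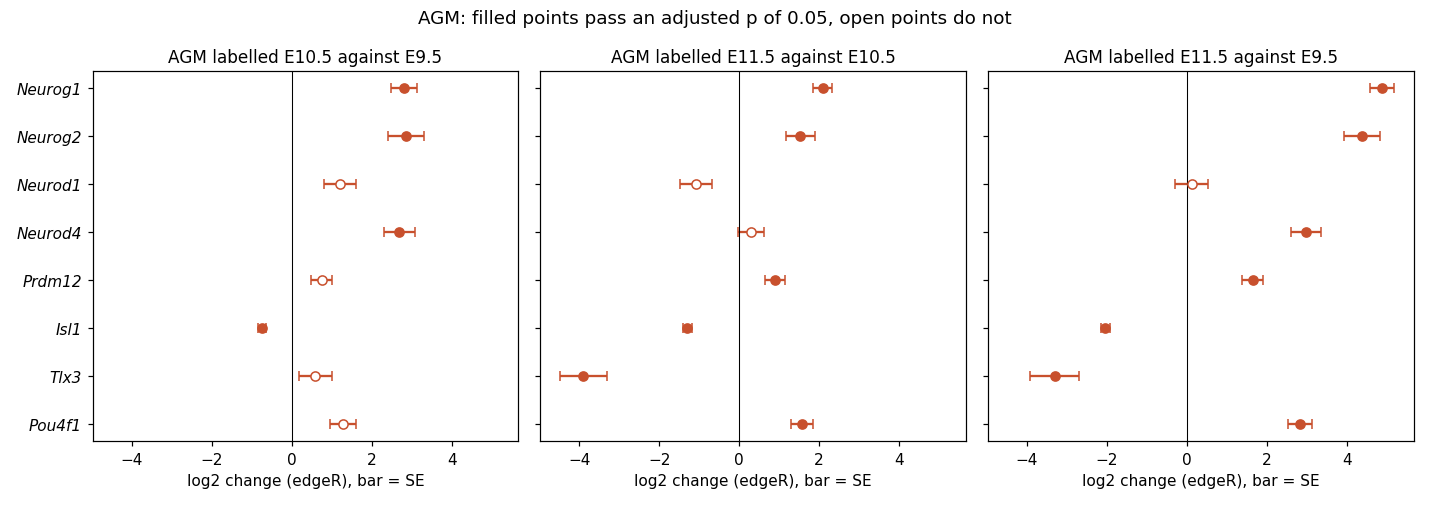
log2 change of 8 factors between labelled AGM ages, fitted by edgeR to 6 libraries (2 per age), with bars of 1 standard error; filled points pass an adjusted p of 0.05. Isl1 and Tlx3 lie at -2.04 and -3.31 for E11.5 against E9.5, opposite to Neurog1 at 4.89.

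Over the 3 comparisons, E11.5 against E9.5 gave 5 members higher and 2 lower, against backgrounds of 21.1% and 24% of all genes. E11.5 against E10.5 gave 4 higher (Neurog1, Neurog2, Prdm12 and Pou4f1) and 2 lower (Isl1 and Tlx3), against 11.8% and 15.4%. In it, Neurog2 (log2 change 1.53 ± 0.36, adjusted p = 0.0171) and Prdm12 (0.90 ± 0.25, 0.0300) lost their calls when either round of E10.5 or E11.5 was left out, with adjusted p up to 0.0694 and 0.170. E10.5 against E9.5 gave 3 higher (Neurog1, Neurog2 and Neurod4) and 1 lower (Isl1), against 0.874% and 1.72%. Those 4 log2 changes were 2.81 ± 0.32, 2.85 ± 0.46, 2.69 ± 0.38 and -0.74 ± 0.11, with adjusted p of 0.0131, 0.0288, 0.0210 and 0.0214. This last set rested on single libraries: without the second-round E10.5 library 0 of the 10 members and 1 gene in all were called, although 7 members had an unadjusted p under 0.05. Without the first-round E9.5 library 2 members were called, with Neurog1 at an adjusted p of 0.100 and Isl1 at 0.108. Neurog2 ranged from 2.08 without the first-round E9.5 library to 4.26 without the second-round one, and Neurod4 from 2.10 to 3.58. Without the first-round E10.5 library 3 were called, with Isl1 at 0.0927. With the round as a block, Neurod1 (1.26 ± 0.30, adjusted p = 0.00876) and Pou4f1 (1.27 ± 0.32, 0.0138) were also called, which made 6, and in E11.5 against E10.5 Neurod1 was called lower (-1.10 ± 0.30, 0.00908). That block raised the number of all genes called from 457 to 4237 in E10.5 against E9.5 and from 4791 to 8491 in E11.5 against E10.5.

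The summed level of the 4 bHLH members was 3.45 and 9.86 CPM in AGM labelled E9.5, 27.8 and 30.5 at E10.5 and 42.1 and 49.1 at E11.5. The sum of Isl1, Tlx3, Pou4f1 and Prdm12, most of it Isl1, was 73.2 and 79.3, 46.6 and 48.4, and 22.3 and 24.2 CPM at the same labelled ages. The lists of the pathway separated in the same comparison, E11.5 against E9.5. Of 14 neural progenitor genes tested, 13 were higher and 0 lower, with a median log2 change of 6.33 against -0.0039 over all genes, including Sox1, a gene of dividing neural tube cells, at 0.0677 and 0.123 CPM against 48.0 and 41.5 CPM (8.98 ± 0.25). Of 19 proneural and Notch genes, 6 were higher and 7 lower, with Hes5, a Notch target, at 6.40 ± 0.28 and Dll1, a Notch ligand, at 3.29 ± 0.17. Of 18 pan-neuronal genes, 12 were lower and 2 higher, including the neurofilament Nefm (-2.89 ± 0.12). Of 13 sensory neuron genes 7 were lower and 0 higher, including Ntrk2, a neurotrophin receptor (-3.79 ± 0.23). Of 8 sympathetic and enteric genes 6 were lower and 0 higher, including Dbh and Th, enzymes of noradrenaline synthesis (-8.30 ± 0.32 and -3.83 ± 0.23). Markers of mesonephros and coelomic epithelium had the same direction as Isl1: 6 of 7 were lower and 0 higher, with sums of 309 and 273, 243 and 200, and 65.8 and 54.8 CPM. Of 10 genes of posterior, limb and heart mesenchyme, other sites of Isl1, 3 were higher and 3 lower. The part of tissue makeup in the members' changes was not tested.

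**Figure D4:**
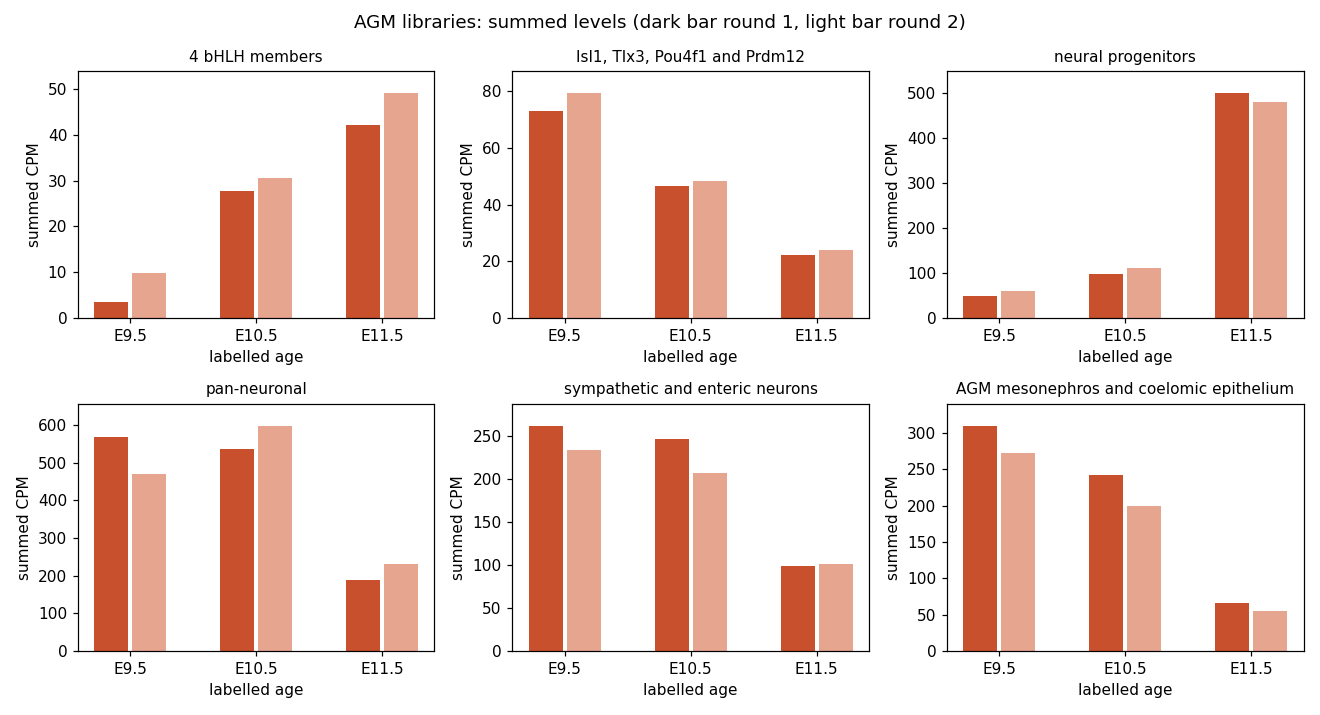
Summed CPM in each of the 6 AGM libraries, by labelled age and round (dark bars round 1, light bars round 2), for the 4 bHLH members, for Isl1, Tlx3, Pou4f1 and Prdm12, and for 4 gene lists. The bHLH and progenitor sums are highest at labelled E11.5, where the pan-neuronal, sympathetic and mesonephros sums are lowest. The sum of Isl1, Tlx3, Pou4f1 and Prdm12, most of it Isl1, is also lowest there, although Pou4f1 and Prdm12 alone are highest there among AGM ages.

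AGM was set against first-project skin of the same labelled age in a fit of 10 libraries and 19945 genes. Skin has 1 library per age there, so the spread comes from the AGM pairs and skin is assumed to vary alike. Tissue and sequencing project cannot be told apart, since no project held both. Barhl1 and Otp had 0 to 4 counts in each AGM library and entered this fit only through their reads in skin, so their calls are left out of the counts that follow. At E9.5, 6 of the other 8 members were lower in AGM, against 15.9% of genes, and 1 was higher (18.0%). Neurog1 was lowest relative to skin, with a log2 difference of -6.05 ± 0.27 (adjusted p = 5.75e-06), and Isl1 was higher by 1.51 ± 0.15 (0.000222). Tlx3 (0.94 ± 0.58, 0.245) did not pass. At E10.5 all 8 were lower in AGM, against 12.2% of genes lower and 11.7% higher. Otp had 0 counts in both AGM libraries and was at least 285-fold lower, against 3 counts over the group. Pou4f1 differed by -5.47 ± 0.23 (adjusted p = 2.90e-06) and Isl1 by -0.52 ± 0.13 (0.0226). The Isl1 call was lost without either AGM library, at adjusted p of 0.104 without round 1 and 0.0686 without round 2. With AGM labelled E11.5 in place of E9.5, against skin at E9.5, 3 of these 8 were called. Over all 19945 genes, 1366 were called in either direction. All 3 members were lower in AGM: Neurog1 (-1.13 ± 0.20), Prdm12 (-2.13 ± 0.20) and Pou4f1 (-1.41 ± 0.22). Isl1 was then at -0.50 ± 0.14 (adjusted p = 0.0760). This alternative was chosen after the values of the check genes were seen. Of 16 neural progenitor genes all 16 were lower in AGM than in skin at either age. Sympathetic and enteric genes were higher for 6 of 8 at either age, with 0 lower at E9.5 and 1 lower at E10.5. Mesonephros genes were higher for 6 of 7 and lower for 0 at either age. Among 10 genes of posterior, limb and heart mesenchyme, 5 were higher and 2 lower at E9.5, and 8 higher and 0 lower at E10.5. Sensory neuron genes (14) had 7 higher and 0 lower at E9.5, and 3 higher and 6 lower at E10.5. Pan-neuronal genes (18) had 5 higher and 5 lower at E9.5, and 0 higher and 17 lower at E10.5. The part of these lists in the members' differences was not tested. With the round as a block, all genes called went from 6759 to 10234 at E9.5 and from 4779 to 8491 at E10.5, with as many members called.

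The difference between tissues in the step from labelled E9.5 to E10.5 was tested directly. It was called below 0 for 2 members, Isl1 (-2.03 ± 0.19, edgeR adjusted p = 0.00245) and Tlx3 (-3.49 ± 0.70, 0.0231). Calls above 0 were made for 0 members, against 5.04% of genes called below and 2.63% called above. Neurog1 (1.36 ± 0.39, edgeR adjusted p = 0.0769), Neurog2 (2.47 ± 0.63, 0.0513) and Neurod4 (1.57 ± 0.55, 0.130) were above 0 without passing. Neurod1, Prdm12 and Pou4f1 were below 0 without passing, as were Barhl1 and Otp. Isl1 was 2.45-fold higher at E10.5 than at E9.5 in skin, whereas in AGM it was at 40.5 and 43.4 CPM at labelled E10.5 and at 69.8 and 76.1 CPM at labelled E9.5. Tlx3 was 17.1-fold higher in skin, while in AGM its rounds differed in sign, with log2 ratios of 0.99 and -0.20. The Tlx3 call was lost without the first-round AGM library labelled E9.5 (adjusted p = 0.0524), and its value was -4.29 without the first-round library labelled E10.5. With the round as a block 6 of the 8 members with enough reads in AGM, and 5137 genes in place of 1530, were called: Neurog1 (1.36 ± 0.36, adjusted p = 0.0192), Neurog2 (2.48 ± 0.41, 0.00127) and Neurod4 (1.59 ± 0.30, 0.00271) above 0, and Pou4f1, Isl1 and Tlx3 below. Without the second-round AGM library labelled E9.5, Neurog2 was at 3.87 and Neurod4 at 2.45. Without the first-round library labelled E9.5, Neurog2 was at 1.70 and Neurod1 at -1.59. The sign of the neurogenins depended on the AGM labels: with AGM labelled E11.5 in place of E9.5, Neurog1 was at -3.56 ± 0.31 and Neurog2 at -1.94 ± 0.56, and Isl1 was at -0.02 ± 0.20.

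Compared per kilobase of exon in skin at E10.5, Neurog1 had 27.7, Neurog2 24.7 and Neurod4 23.6 CPM per kilobase, above Neurod1 (15.9), Isl1 (15.3) and Pou4f1 (14.98). Prdm12 (10.9), Tlx3 (9.53), Otp (5.90) and Barhl1 (4.96) were lower. In AGM labelled E9.5, round 1, Isl1 had 17.6 CPM per kilobase, and the next member, Tlx3, had 1.1485. In round 2 Isl1 had 19.2, and the next member was Neurod1 (1.67), ahead of Tlx3 (1.07). Across the 7 groups of AGM and first-project skin, 9 of 10 members had their highest mean in skin at E10.5, and Isl1 in AGM labelled E9.5 (73.0 CPM) ahead of skin at E10.5 (60.7 CPM). Neighbours in that order overlapped in range for Neurod1 (AGM labelled E9.5 and E11.5), Neurod4 (AGM labelled E11.5 and E10.5) and Tlx3 (AGM labelled E10.5 and E9.5). Below 0.2 CPM, Barhl1 and Otp overlapped too. Neurod1 shares 201 exonic bases with Cerkl on the same strand, and Prdm12 shares 200 with an antisense gene, Gm13425, of 47, 125, 92 and 1 counts in first-project skin; the sources used here do not say whether counting used strand.

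The members' log2(CPM + 1) profiles were correlated with each other and with 13786 genes. This is a description over the 10 libraries of AGM and first-project skin, which share ages and tissues. The 13786 genes had a mean of 1 CPM or more over those libraries, with predicted genes (Gm and digits, or Rik in the name) left out. Isl1 was least like the other members, with Pearson's r of 0.03 to 0.59. Prdm12 and Pou4f1 were most alike (r = 0.97), and Neurog2 and Neurod4 had r = 0.97. The closest of the 13786 genes was Gsx1 for Barhl1 and Trim36 for Otp, both at r = 0.997. It was Pax3 for Neurog2, Nhlh2 for Neurod1, Prmt8 for Neurog1 and Gsg1l for Tlx3 (0.99 each). For Neurod4 it was Zbtb18, for Isl1 Zfp658, for Prdm12 Rgs8 and for Pou4f1 Nmnat2, at r = 0.98 each. Each of these closest genes had the highest of 13786 correlations. Barhl1 and Gsx1 were at 19.4 and 11.9 CPM in skin at E10.5. In the other libraries used they were at most at 1.29 and 1.17 CPM, so their r rests mainly on that library. The 2 genes next to Isl1 were Stk36 and Usp49 (0.97 each), and next to Pou4f1 came Prdm12 and Fabp7 (0.97 each).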

How the data were processed

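Raw read counts per gene were deposited by the authors for 14 libraries and 53465 genes. Per the submitters' processing notes, the build was GRCm38/mm10 and the tools were featureCounts 1.6.0, STAR 2.5.0a, Trimmomatic 0.36 and DESeq2 1.20.0. Settings, strand included, are not given in the sources used here. From these counts CPM was computed over each library's total. Members and gene lists were chosen with earlier results of these data known. Comparisons used edgeR 4.0.16 in R 4.3.3: filterByExpr by group, TMM scaling, glmQLFit and glmQLFTest, Benjamini-Hochberg adjustment over all tested genes, called under 0.05. The AGM fit held 6 libraries and the fit with first-project skin 10, each with 3 residual degrees of freedom. SE is the absolute log2 change divided by the root of F. Named genes are all 10 members, at most 2 genes per list and comparison with the largest change (5 CPM or more), and the 3 genes most like each member. AGM rounds pair the libraries, since round differences correlated at 0.625, 0.430 and 0.534 between ages over 14568 genes. The main fits held no term for the round, so their SE and adjusted p do not use this pairing. The test was checked on simulated counts drawn with a single dispersion for all genes and no difference between rounds. That check therefore does not cover the round differences of these libraries. PCR reads are not independent molecules, so intervals cover counting error only. Alternatives were DESeq2 1.42.0, limma 3.58.1 (voom), median-of-ratios scaling, no low-count filter, the block, libraries left out and other sets of libraries. For 2 comparisons, a version with AGM labelled E11.5 in place of E9.5 was chosen after seeing the data.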

Additional observations from a re-analysis of the deposited data

Results flagged for a closer look

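Isl1 and Tlx3 stood out because their step from labelled E9.5 to E10.5 differed between AGM and first-project skin by a direct test. The AGM change minus the skin change was -2.03 ± 0.19 on the log2 scale for Isl1 (edgeR adjusted p = 0.00245) and -3.49 ± 0.70 for Tlx3 (adjusted p = 0.0231). Isl1 was lower at labelled E10.5 than at labelled E9.5 in both AGM rounds, with log2 ratios of -0.79 and -0.81, and Tlx3 differed in sign between rounds. Skin has 1 library at each age, and the AGM ages go against marker genes: with AGM labelled E11.5 in place of E9.5 the values were -0.02 ± 0.20 for Isl1 (adjusted p = 0.994) and -0.22 ± 1.14 for Tlx3 (0.972).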

How the results depend on the processing

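Of 616 member values recomputed under alternatives, 494 kept their direction and their side of the threshold, 77 lost the call, 36 gained it and 9 reversed; median-of-ratios scaling and TMM-scaled skin CPM changed no member call, and the block changed none beside those in the text. Members called and all genes called are given in turn. In the fits with skin these member counts include Barhl1 and Otp, which entered only through their reads in skin. They can thus exceed the counts given above for the other 8 members. With all 14 libraries and the skin projects as duplicates, 0 and 0 were called in all 9 comparisons; at an unadjusted p under 0.05, 27, 485 and 1133 genes passed for the 3 AGM comparisons, 950, 847 and 62 for those with skin, and 80, 256 and 444 for the skin steps, with 2 members in AGM against skin at E10.5 and 0 in the others. In that fit with the replicate block, 0 members and 0 genes were called for AGM E10.5 against E9.5 (4 members and 370 genes unadjusted), 0 and 50 for E11.5 against E10.5 (5 members unadjusted), and 1 and 211 for E11.5 against E9.5. For AGM E10.5 against E9.5 (4 and 457), genes called were 929 by DESeq2, 1769 with no low-count filter and 4237 with the round as replicate block, and leaving out each library gave 0 to 5 members and 1 to 477 genes. For E11.5 against E10.5 (6 and 4791), the block gave 8491 genes and leaving out a library gave 4 to 7 members and 2794 to 4566 genes. For E11.5 against E9.5 (7 and 7953) leaving out a library gave 7 to 8 members and 5557 to 7548 genes. The block gave 10234 and 8491 genes for AGM against skin at E9.5 (6759) and E10.5 (4779). Leaving out a library there gave 8 members and 4685 to 5822 genes at E9.5, and 9 members and 3195 to 3244 genes at E10.5. For the difference between tissues (2 and 1530), DESeq2 gave 5 members, limma-voom 4, no filter 8 and 2651 genes, the block 7 and 5137, and leaving out a library 2 to 5 and 930 to 1561.

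For the skin steps, a 2-fold rule gave 9 members and 1833 genes, 3953 genes and 4048 genes (4-fold: 5 and 595, 5 and 1667, 10 and 1798), and an 8-fold rule 3 members and 249 genes, 736 genes and 1032 genes. A floor of 5 CPM left 282, 1016 and 1150 genes, and 6 members at the third step; no CPM floor gave 930 genes at the first. The same steps in second-project skin had 0 members and 107, 446 and 1148 genes past 4-fold. edgeR over 10 libraries, with a spread borrowed from the AGM pairs because each skin age is 1 library, called 8, 8 and 9 members and 1282, 6003 and 5488 genes. With AGM labelled E11.5 in place of E9.5, AGM against skin at E9.5 had 4 members and 1366 genes and the difference between tissues 5 members. Under it Isl1 (-0.50) and Tlx3 (-2.33) reversed against skin at E9.5, and Neurog1 (-3.56), Neurog2 (-1.94) and Neurod4 (-1.45) in the difference. Neurod1 in E11.5 against E9.5 reversed without AGM E9.5 replicate 1 (-0.43) and without AGM E11.5 replicate 2 (-0.06), over a range up to 0.97, Tlx3 in E10.5 against E9.5 without AGM E10.5 replicate 1 (-0.20, range up to 1.11), and Isl1 in AGM against skin at E10.5 with all 14 libraries (0.47). The causes were not tested. The counts of members here include Barhl1 and Otp, which entered the fits with skin only through their reads in skin.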
